A study of Mus musculus with 2 samples.

Results

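The genes described here are the ubiquitin-conjugating enzymes (E2s) and the deubiquitinases of the USP and UCH families, measured in epidermal keratinocytes of K14-caSmad1 mice and of wild-type mice. They were chosen by gene name: every gene whose name on the array began with Ube2 or Uch, or with Usp and a number, was taken, and Ube2c and Usp18 were left out. This gave 86 of the 27968 gene names on the array, measured by 203 probes. Of the 86 names, 31 were E2s, 48 were USP and 4 were UCH deubiquitinases. The other 3 names belong to neither group: Ube2cbp, Usp6nl and Uchl5ip, an old name of the augmin subunit Haus7. Usp52, counted with the USP genes by name and domain, is now called Pan2 and is a subunit of a poly(A) nuclease.

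K14-caSmad1 mice carry a constitutively active Smad1 transgene. K14 stands for keratin 14, whose promoter is active in the basal layer of the epidermis and in the outer root sheath of the hair follicle. The K14-caSmad1 mice and the wild-type mice were both FVB/NJ and 20 days old, and the RNA came from primary epidermal keratinocytes. K14-caSmad1 RNA (Cy5) and wild-type RNA (Cy3) were hybridised together on each of 2 two-colour arrays, so the measured quantity is a log2 ratio of K14-caSmad1 over wild type within an array. The dyes were not swapped, and dye and genotype therefore cannot be told apart. The labels call the arrays biological replicates but name no animals, and both arrays lay on 1 slide. They were treated as repeats of 1 pair of RNA samples: the values of both arrays are given, and limma's p-values measure only how well the arrays repeated.

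Ubiquitin is activated by an E1 enzyme, passed to an E2 and attached to a protein with the help of an E3 ligase, and deubiquitinases take it off again. The E2 often decides which kind of ubiquitin chain is built, and relatives of the E2s carry the ubiquitin-like modifiers SUMO, NEDD8 and ISG15. Both arms act on the BMP and TGF-beta pathways. Smad1, the transcription factor of BMP signalling, is marked for the proteasome by Smurf ligases, and in human cells USP15 acts on receptor-activated SMADs, USP9X on SMAD4, and USP4, USP11 and UCHL5 on the type I TGF-beta receptor.

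The promoters of 6 members that differed at least 2-fold on both arrays are shown, so that their letters can be read side by side. Each covers the 250 bases before the RefSeq transcription start in the GRCm38.p6 build, read along the gene's own strand. They are 3 genes that were higher and have the GC-rich word GGCGCC, known as a Smad1 and Smad5 binding element, and the 3 lower genes that are in the RefSeq promoter table. Capitals mark GGCGCC or its variant GGAGCC on either strand (GGCTCC is the reverse reading of GGAGCC). The windows are chr1:143777028-143777277 on the plus strand for Uchl5, chr11:23306645-23306894 on the plus strand for Usp34 and chr16:77013819-77014068 on the plus strand for Usp25. For the lower genes they are chr9:64234951-64235200 on the plus strand for Uchl4, chr14:20618355-20618604 on the minus strand for Usp54 and chr9:44084670-44084919 on the plus strand for Usp2.
Uchl5: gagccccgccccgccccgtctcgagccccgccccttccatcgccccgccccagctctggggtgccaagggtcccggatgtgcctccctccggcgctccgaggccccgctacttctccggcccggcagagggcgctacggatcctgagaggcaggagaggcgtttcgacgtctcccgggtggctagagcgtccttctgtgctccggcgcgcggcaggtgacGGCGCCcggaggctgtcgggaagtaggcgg
Usp34: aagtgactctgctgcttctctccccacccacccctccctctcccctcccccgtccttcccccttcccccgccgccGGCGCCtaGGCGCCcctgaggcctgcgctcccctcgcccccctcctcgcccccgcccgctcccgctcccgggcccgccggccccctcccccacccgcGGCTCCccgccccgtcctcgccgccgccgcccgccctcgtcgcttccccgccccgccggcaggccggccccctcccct
Usp25: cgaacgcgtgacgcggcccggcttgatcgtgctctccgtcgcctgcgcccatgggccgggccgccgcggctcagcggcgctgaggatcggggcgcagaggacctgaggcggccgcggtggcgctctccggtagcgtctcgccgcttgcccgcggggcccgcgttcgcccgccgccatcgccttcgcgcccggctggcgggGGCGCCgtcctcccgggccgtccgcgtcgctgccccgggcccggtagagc
Uchl4: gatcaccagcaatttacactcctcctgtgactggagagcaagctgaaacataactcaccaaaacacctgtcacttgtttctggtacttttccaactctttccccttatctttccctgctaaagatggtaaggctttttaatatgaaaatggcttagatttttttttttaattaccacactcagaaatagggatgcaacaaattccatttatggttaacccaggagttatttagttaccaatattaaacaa
Usp54: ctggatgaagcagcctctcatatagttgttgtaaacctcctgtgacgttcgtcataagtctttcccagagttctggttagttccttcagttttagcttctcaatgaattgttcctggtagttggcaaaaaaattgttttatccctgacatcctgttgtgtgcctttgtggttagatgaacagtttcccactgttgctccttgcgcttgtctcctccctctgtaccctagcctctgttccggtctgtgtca
Usp2: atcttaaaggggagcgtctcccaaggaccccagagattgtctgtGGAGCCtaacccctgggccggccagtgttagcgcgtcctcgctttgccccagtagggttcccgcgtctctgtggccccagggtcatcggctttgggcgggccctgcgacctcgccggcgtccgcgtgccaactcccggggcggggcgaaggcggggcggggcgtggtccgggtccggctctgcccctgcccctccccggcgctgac

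Uchl5, Usp34 and Usp25 have 74.0%, 82.0% and 80.0% G and C in these windows and 30, 30 and 47 CG pairs. Uchl4, Usp54 and Usp2 have 36.0%, 45.2% and 71.6% G and C and 0, 4 and 25 CG pairs. Uchl5, Usp34 and Usp25 were picked for a word made of G and C only, so their composition does not stand for all higher members. The other higher members with a listed promoter are Usp46, Ube2e1, Ube2q2 and Ube2d3. They have 77.6%, 75.6%, 77.6% and 69.6% G and C and 33, 23, 35 and 26 CG pairs, a range that includes the values of Usp2. Usp34 holds GGCGCC at 2 places, and Uchl5 and Usp25 at 1. The promoters of Uchl4 and Usp54 hold none of the words searched, and that of Usp2 holds GGAGCC.

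Over all members with a listed promoter, GGCGCC was found in 3 of the 7 higher members and in 0 of the 3 lower members. It was present in 12 of 54 tested members (22.2%) and in 9.54% of all 27025 first-listed promoters. GGAGCC was present in 5 of the 7 higher and 1 of the 3 lower members, in 33.3% of the tested members and in 25.7% of all promoters. The tested members' promoters held a median of 24.5 CG pairs, against 6 for all promoters, and the part of this difference in the shares was not tested. CACGTG, the E-box, was in 11.1% of the tested members and 6.05% of all. TATAAA, the TATA box, was in 4 of the 54 tested members (7.41%) and in 3504 of all promoters (13%). Neither was in any of the 10 promoters of members that differed at least 2-fold. These matches describe the letters of the windows and do not show binding.

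Of the 86 genes, 68 were tested, because a probe passed the scanner's detection flag in the same channel on both arrays. A gene counts as called where each array put it past 2-fold, both with the same sign. Among the 68, 9 were at least 2-fold higher in K14-caSmad1 keratinocytes on both arrays (13.2%), and 4 were at least 2-fold lower (5.88%). Of all 11760 tested genes, 4.08% were higher and 9.80% lower by the same rule. Under limma, 37 members were higher and 24 lower at an adjusted p of 0.05, where 40.8% and 46.3% of all genes were called. The 13 genes that passed the 2-fold rule had limma adjusted p-values of 3.97e-05 to 0.000153. The median log2 ratio of the tested members was 0.18, against -0.03 for all tested genes, and 41 members were above 0 and 27 below. The median was 0.22 over the 28 tested E2s and 0.06 over the 38 tested deubiquitinases. The share of calls that were higher ranged with the processing. It was 69.2% of the members' calls and 29.4% of those of all genes here, but 88.2% and 57.8% when each array was centred on its median in place of the loess step.

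**Figure D1:**
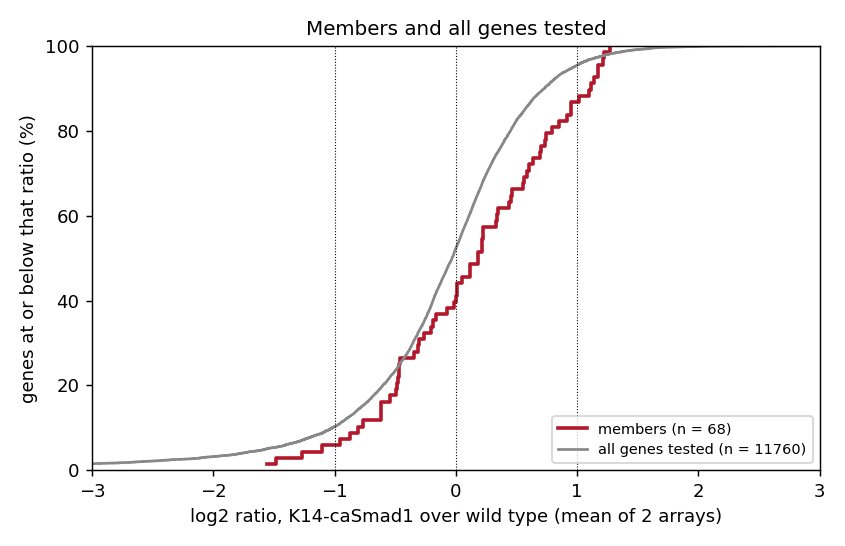
Cumulative share of genes (vertical axis, percent) at or below each log2 ratio of K14-caSmad1 over wild type (horizontal axis, mean of 2 arrays), for the 68 tested members and for all 11760 tested genes. The members' curve lies to the right of the other over most of its length, with medians of 0.18 and -0.03, and the members span -1.56 to 1.27; the axis ends at -3 and 3, and some of the other genes lie beyond it.

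The 18 genes not tested were Ube2cbp, Ube2d1, Ube2l6, Ube2u, Uchl1, Usp9y, Usp11, Usp22, Usp26, Usp27x, Usp29, Usp36, Usp42, Usp43, Usp44, Usp45, Usp49 and Usp50. For 13 of them no probe was well above background on any array in either channel. The 18 include the E2 of the ISG15 pathway (Ube2l6), the neuronal ubiquitin hydrolase Uchl1 and Usp9y of the Y chromosome, and no change can be given for them. The arrays repeated closely at the brightest probes of the tested members. There the largest difference between the 2 log2 ratios of a member was 0.23, and 65 of 68 had the same sign on both.

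**Figure D2:**
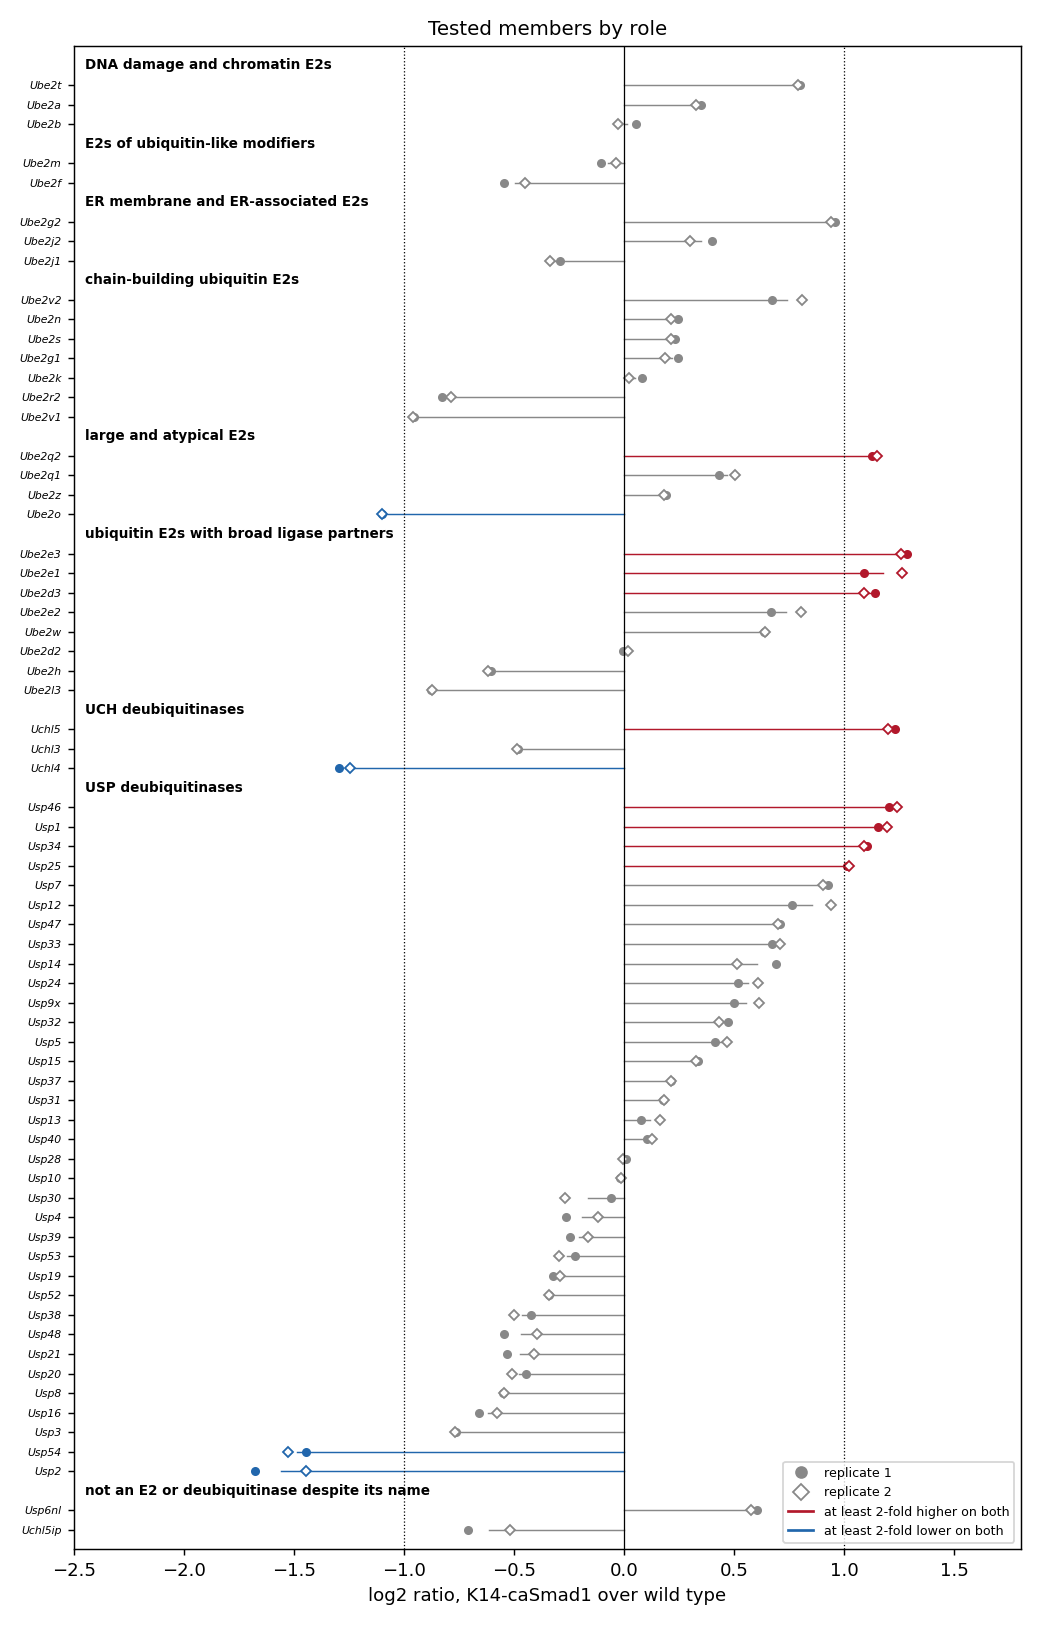
Log2 ratio of K14-caSmad1 over wild type (horizontal axis) on replicate 1 (filled circle) and replicate 2 (open diamond) for 67 of the 68 tested members, grouped by role; the bar runs to the mean. Dotted lines mark a 2-fold difference; 9 members lie beyond it on the higher side and 4 on the lower side on both arrays.

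In the class of ubiquitin E2s that serve several ligases, 3 of 8 tested genes rose at least 2-fold and 0 fell, beside 4.08% and 9.80% of all tested genes, and the class median was 0.69. One of the 3, Ube2d3, had probes of both directions. Among them are Ube2e1, Ube2e2 and Ube2e3, E2s with a longer amino end; their log2 ratios were 1.17, 0.73 and 1.27, and the other tested probe of Ube2e2 gave -0.30.

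Ube2e3 (probe at chr2:78760551-78760610 of mm9) read 12.23 and 12.05 in log2 intensity in K14-caSmad1 keratinocytes, against 10.94 and 10.79 in wild-type keratinocytes. Both K14-caSmad1 values were above both wild-type values, and the fold was 2.41. Ube2e1 (chr14:19115585-19115644) read 10.99 and 12.60 in K14-caSmad1 and 9.90 and 11.34 in wild type, a 2.26-fold rise. Both channels of Ube2e1 were brighter on replicate 2, so the groups overlap across the arrays, while within each array the K14-caSmad1 channel was the higher by 1.09 and 1.26.

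Ube2d3, one of the most widely used E2s and close in protein sequence to Ube2d2, read 13.61 and 13.37 in K14-caSmad1 and 12.47 and 12.28 in wild type at its brightest probe (chr3:135129159-135129218). The groups did not overlap, and the log2 ratio was 1.11. Its other 3 probes gave 0.53, -0.67 and -1.94. The lowest read 11.43 and 11.91 in K14-caSmad1 and 13.39 and 13.81 in wild type. That probe spans chr3:135123030-135125958 of mm9, far more than its own length, at lower coordinates than the other 3. The direction of Ube2d3 therefore depends on the probe, and the mean over its 4 probes was -0.24.

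Ube2d2, by contrast, was at 0.01 at its brightest probe, and its other probes gave 0.78 and 0.16. Ube2w, which can put ubiquitin on a protein's amino end, was at 0.64 with 0.91 at its other probe. Ube2l3, the partner of HECT and RBR ligases, was at -0.88 with 0.36 at its other probe. Ube2h, the E2 of the CTLH ligase, was at -0.61 at its brightest probe and -1.81 at another. Its remaining probe was not well above background in K14-caSmad1 and read 11.21 and 10.92 in wild type, so that K14-caSmad1 was at least 5.17-fold lower. All 3 Ube2h probes were thus lower in K14-caSmad1.

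Among the large and atypical E2s, Ube2q2 rose and Ube2o fell. Ube2q2, an E2 with a long amino-terminal extension, read 11.95 and 12.77 in K14-caSmad1 and 10.82 and 11.62 in wild type (chr9:55055069-55055128). Its log2 ratio was 1.14, with 0.48 at its other probe, and the groups did not overlap although replicate 2 was brighter in both channels. Ube2q1, its close relative, was at 0.47 and Ube2z, an E2 charged by Uba6, at 0.18.

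Ube2o, a single protein with E2 and ligase activity that clears ribosomal proteins in mouse reticulocytes and acts on SMAD6 in cultured cells, read 12.15 and 11.93 in K14-caSmad1 and 13.26 and 13.03 in wild type (chr11:116399379-116399438). The log2 ratio was the same on both arrays, a 2.15-fold fall, and the groups did not overlap. Ube2h and Ube2o are both abundant in maturing red cells, and the erythroid markers were lower too: Hba-a1 was at -1.39 and Alas2 at -0.89. Alas2 was not well above background in K14-caSmad1. The summed erythroid level was 10.74 and 10.61 in K14-caSmad1 and 12.00 and 11.90 in wild type on the log2 scale, and its part in the Ube2h and Ube2o values was not tested.

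None of the 7 tested chain-building E2s differed 2-fold on both arrays, where 4.08% of all tested genes were higher and 9.80% lower. So few genes cannot set the class apart from these shares. The sequence variants Ube2v1 and Ube2v2, inactive partners with which Ube2n builds K63-linked chains, lay apart. Ube2v1 was at -0.95 and -0.96 on the 2 arrays, with 0.09 at its other probe, and Ube2v2 at 0.67 and 0.81, with 0.93 at its other probe. Ube2n itself was at 0.23, with 0.80 at its other probe. Ube2r2, an E2 of cullin-1 ligases, was below 0 at all 4 probes, from -0.45 to -1.56, and stood at -0.81 at the brightest. A pair of its probes share 44 of their bases on chromosome 4 and still gave -0.81 and -1.56. Ube2s, which extends K11 chains for the anaphase-promoting complex, was at 0.22, Ube2g1 at 0.22 and Ube2k at 0.05. The other probe of Ube2g1 gave -0.35, and the other tested probes of Ube2k gave 0.10 and 0.50. A further Ube2s probe gave -0.12, but it is placed on chromosome 9 and the brightest on chromosome 7.

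The E2s of the endoplasmic reticulum were Ube2g2 at 0.95, Ube2j2 at 0.35 and Ube2j1 at -0.31. The other tested probe of Ube2j2 gave 0.30 and that of Ube2j1 0.17, so the sign of Ube2j1 depends on the probe. Ube2g2 read 13.81 and 13.65 in K14-caSmad1 and 12.85 and 12.70 in wild type, just inside the 2-fold line. Its other probe gave 0.15. Of the DNA repair E2s, Ube2t, the Fanconi anaemia E2, was at 0.79 with 0.07 at its other probe. The Rad6 enzymes Ube2a and Ube2b were at 0.34 and 0.01 at their brightest probes. The other probe of Ube2a gave -0.18, and the other tested probes of Ube2b gave -0.09, -0.65 and 0.22.

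Of the E2s for other modifiers, the NEDD8 E2s Ube2m and Ube2f were at -0.07 and -0.50, and the other tested probes of Ube2f gave 0.05 and 0.21.

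**Figure D3:**
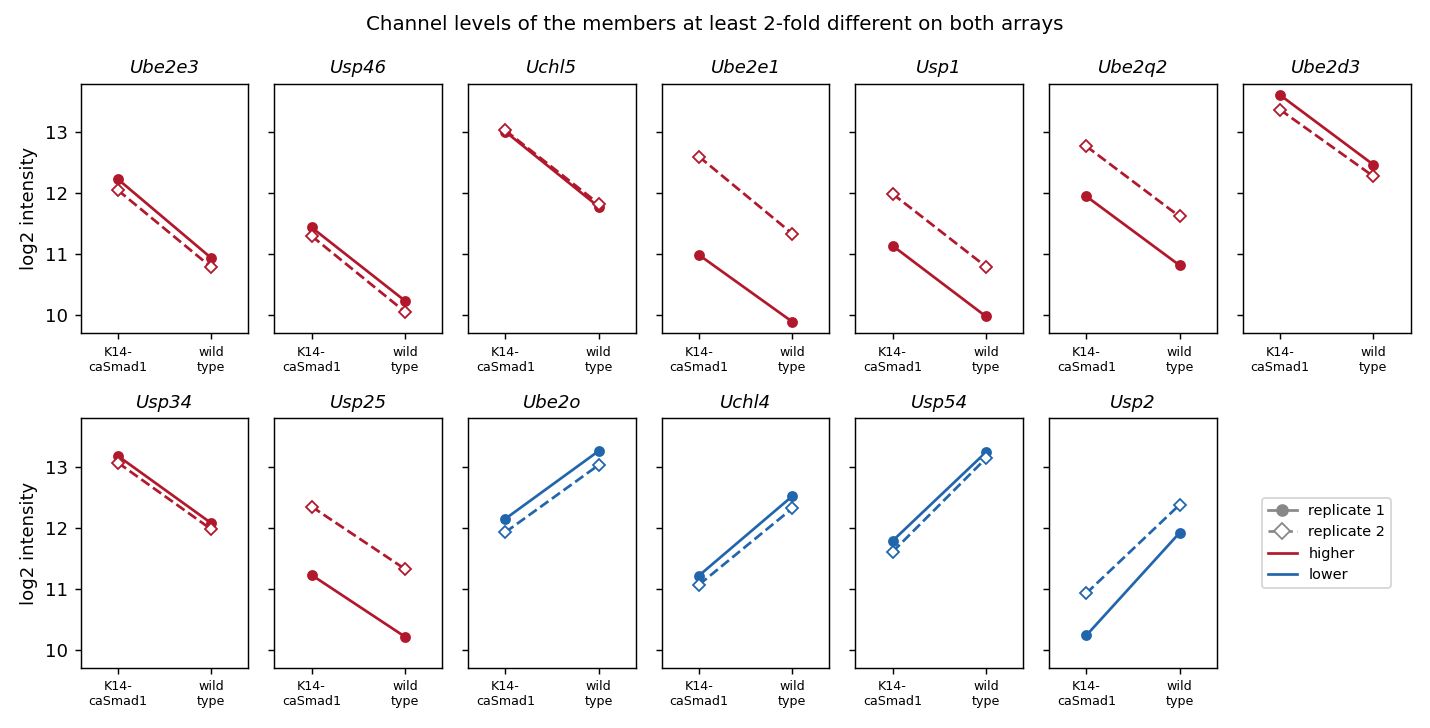
Log2 intensity (vertical axis) in K14-caSmad1 (left) and wild type (right) for the 13 members at least 2-fold different on both arrays; lines join the channels of 1 array (solid, filled circle: replicate 1; dashed, open diamond: replicate 2). Every line falls to the right for the 9 higher genes and climbs for the 4 lower genes; both channels of Ube2e1, Usp1, Ube2q2, Usp25 and Usp2 were brighter on replicate 2.

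The UCH deubiquitinases split. Uchl5 (UCH37), which works at the proteasome and on chromatin with the INO80 complex, read 13.01 and 13.03 in K14-caSmad1 and 11.78 and 11.83 in wild type (chr1:145653844-145653903). It rose 2.32-fold, and the groups did not overlap. Uchl4 read 11.22 and 11.07 in K14-caSmad1 and 12.52 and 12.32 in wild type (chr9:64083589-64083648), and fell by 1.27 on the log2 scale without overlap of the groups, with -1.42 at its other probe. Uchl4 is close in sequence to Uchl3, which was at -0.48, and hybridisation of either transcript to the other's probe was not tested.

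Among the 35 tested USP genes, 4 rose and 2 fell (11.4% and 5.71%), beside 4.08% and 9.80% of all tested genes. The WDR48-dependent deubiquitinases Usp46, Usp1 and Usp12 were at 1.22, 1.17 and 0.85. Usp46, studied mainly in neurons, read 11.44 and 11.30 in K14-caSmad1 and 10.24 and 10.06 in wild type (chr5:74396489-74396548), with no overlap of the groups. Usp1, which in human cells acts on FANCD2, PCNA and the ID proteins, read 11.14 and 11.99 in K14-caSmad1 and 9.98 and 10.80 in wild type (chr4:98602068-98602127). Here too the lower K14-caSmad1 value was above the higher wild-type value.

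Usp34 removes ubiquitin from Smad1 in mouse mesenchymal stem cells and from axin in human cells. It read 13.18 and 13.07 in K14-caSmad1 and 12.08 and 11.98 in wild type (chr11:23389424-23389483). It rose 2.13-fold without overlap. Usp25, a regulator of interleukin-17 signalling in mice, read 11.23 and 12.35 in K14-caSmad1 and 10.22 and 11.33 in wild type (chr16:77116439-77116498). The channels overlap across the arrays, since replicate 2 was brighter in both. The log2 ratio of Usp25 was 1.02 at this probe and -0.01 at its other probe.

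Just inside the 2-fold line on the higher side lay Usp7, the MDM2 and p53 deubiquitinase, at 0.91. It read 13.89 and 13.73 in K14-caSmad1 and 12.96 and 12.83 in wild type, and its other probe gave 0.69. Next below it among the USP genes were Usp12 at 0.85, Usp47 at 0.70 and Usp33 at 0.69. Usp14, which trims ubiquitin at the proteasome, was at 0.60 with 0.56 at its other probe.

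Usp2 was the lowest of the 68 genes at their brightest probes. It encodes a deubiquitinase whose transcript follows the circadian clock in several mouse tissues, and it read 10.24 and 10.93 in K14-caSmad1 and 11.92 and 12.38 in wild type (chr9:43900824-43900883). The groups did not overlap, and the difference was -1.68 and -1.45 on the 2 arrays. The other probe of Usp2 gave -0.44. Usp54, first classed as lacking catalytic activity, read 11.79 and 11.61 in K14-caSmad1 and 13.24 and 13.14 in wild type (chr14:21368272-21368330) and fell by 1.49 on the log2 scale. Its groups did not overlap either.

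Usp53, a relative of Usp54 found at tight junctions in the mouse inner ear, was at -0.26 at its brightest probe. Another probe was not well above background in K14-caSmad1 and read 10.46 and 10.42 in wild type, so that K14-caSmad1 was at least 3.36-fold lower. Lower values below 2-fold were also seen for the histone H2A deubiquitinases Usp3 (-0.77, with -0.04 and -0.16 at its other probes) and Usp16 (-0.62) and for the endosomal Usp8 (-0.55). Usp10, which acts on p53 in human cells, and Usp28 were at -0.02 and 0.00. The names that belong to no enzyme, Usp6nl and Uchl5ip, were at 0.59 and -0.62.

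Of 12 members with a published link to Smad signalling, a list chosen with earlier results of these data known, 10 were tested. Among these 4 rose (Uchl5, Ube2d3, Usp34 and Usp25) and 1 fell (Usp2), beside 4.08% and 9.80% of all genes, and the list median was 0.75. The calls of Ube2d3, Usp25 and Usp2 rest on their brightest probes and were lost when the probes of a gene were averaged. Usp9x read 9.74 and 9.76 in K14-caSmad1 and 9.25 and 9.14 in wild type, a log2 ratio of 0.55. The groups did not overlap, but the difference was below 2-fold. Usp15 was at 0.33 with 0.39 at its other probe, and Usp4 at -0.19 with -0.23 at its other probe.

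**Figure D4:**
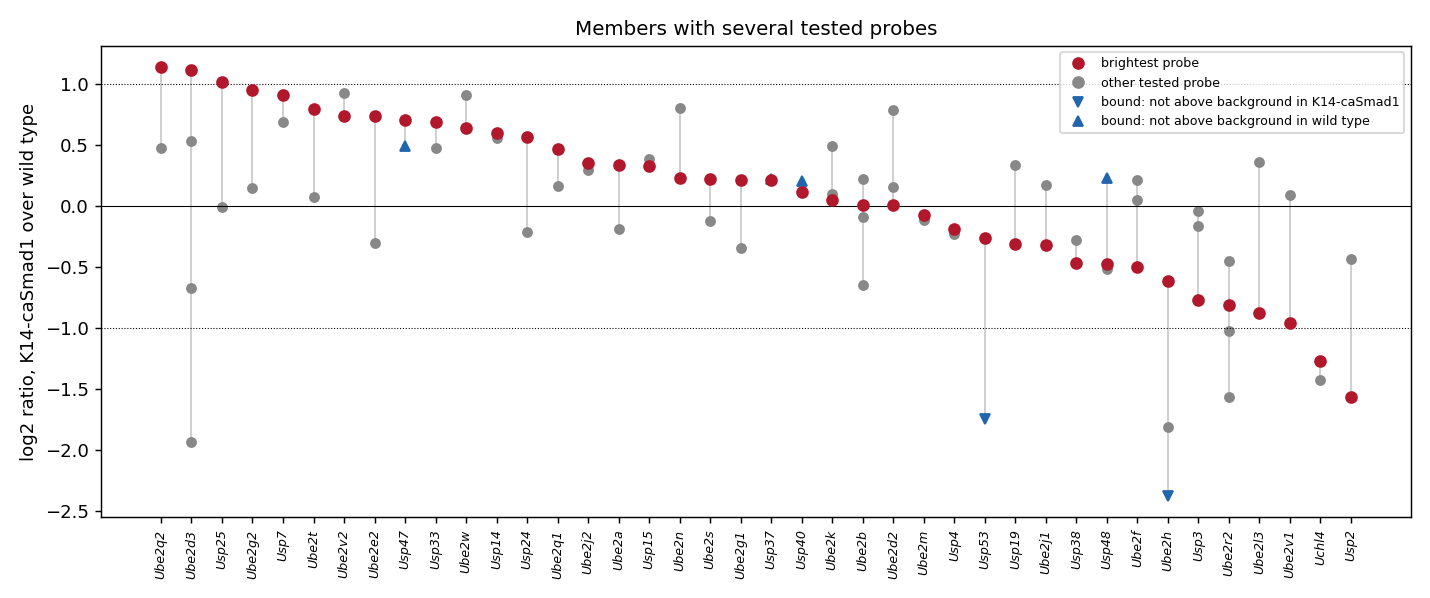
Log2 ratio of K14-caSmad1 over wild type (vertical axis, mean of 2 arrays) of every tested probe of 40 of the 41 members with several tested probes, ordered by the brightest probe (red); grey points are the other probes, and triangles are bounds for probes not well above background in 1 channel. The probes of Ube2d3 span 1.11 to -1.94, while both Uchl4 probes lie below -1.

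Several probes were tested for 41 members, and their measured log2 ratios differed within a gene by a median of 0.57, against 0.44 over 2825 genes of the array. Probes of opposite sign were found in 15 of the 41 (36.6%), close to the 35.2% of all genes with several probes. Of the 13 genes called, 8 had 1 tested probe and 5 had several. Of those 5, Uchl4 was the only one with every tested probe past 2-fold, while Ube2d3, Ube2q2, Usp25 and Usp2 each had a probe that was not. At the members' brightest probes the arrays differed by at most 0.23, less than the median spread between probes. Some other tested probes differed more between the arrays, such as that of Ube2v1 with 0.30 and -0.12.

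The rest of the pathway was described by 8 lists. They held E1s, modifiers, other E2s, ligases, cullins, the anaphase-promoting complex, other deubiquitinases with related genes, and SUMO or NEDD8 proteases. Of their 120 tested genes, 3 rose and 14 fell at least 2-fold on both arrays, where 4.08% and 9.80% of all tested genes did. When the arrays were only centred on their medians, 17 rose and 5 fell, beside 9.43% and 6.90% of all genes. Among the genes that rose were Uba3, the catalytic subunit of the NEDD8 E1, at 1.23, and the modifier Sumo2 at 1.03. The ubiquitin fusion gene Rps27a fell by 1.42 on the log2 scale.

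In the list of HECT and RBR ligases, 5 of 27 fell and 0 rose, where 9.80% and 4.08% of all genes did, and the list median was 0.08. Herc4 was at -1.91 with -0.26 at its other probe, Hectd3 at -1.32 with -0.27 at its other probe, and Ube3b at -1.29 with 1 probe. Of 28 deubiquitinases and related genes outside the USP and UCH names, 5 fell and 0 rose, beside the same shares of all genes. The lowest were the ovarian tumour family genes Otud3 at -3.25, Otub2 at -2.83 and Otud5 at -1.35. Spop, a cullin-3 adaptor, was at -1.34, Anapc2, the cullin subunit of the anaphase-promoting complex, at -1.03 with -0.15 at the highest of its probes, and the E2-like gene Aktip at -1.07.

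As checks on the samples, 5 of 6 keratinocyte markers were at least 2-fold higher in K14-caSmad1 at their brightest probes, beside 4.08% of all tested genes. Their summed level was 18.77 and 18.85 in K14-caSmad1 and 17.95 and 17.85 in wild type in log2 intensity. Trp63 was at 1.69 with -0.78 at its other probe. Krt10, the marker not called, was at 0.02 with 2.29 at its other probe. All 5 hair shaft markers were lower, with log2 ratios between -5.31 and -1.48, with sums of 14.01 and 13.80 in K14-caSmad1 and 19.08 and 19.02 in wild type. Of 16 cell cycle genes tested, 10 were at least 2-fold higher, beside 4.08% of all tested genes, and all 16 were above 0, from 0.51 to 2.06. Bub1, which was called, and Ccnb1, which was not, were not well above background in wild type. Some other marker groups moved as well. Both tested fibroblast markers were at least 2-fold lower, with a measured median of -1.44 and no value well above background in K14-caSmad1. Tubb3, a neuronal marker, was at -2.51. It was the only tested gene of the neuron and Merkel cell list, as Krt20, Atoh1 and Syp did not pass the detection filter. The 2 tested endothelial markers had a measured median of -0.66, and neither was well above background in K14-caSmad1. The 3 tested T cell markers had a median of 0.88. Melanocyte sums were 11.64 and 11.42 in K14-caSmad1 and 12.67 and 12.61 in wild type. Of the melanocyte genes, Mlana, Tyrp1 and Mitf were not well above background in K14-caSmad1. The part of these cells in the values of the E2s and deubiquitinases was not tested, and in bulk RNA fewer cells of a type and less RNA per cell cannot be told apart. Smad1 itself was at 0.28 and 0.27 on the 2 arrays. Whether its probe, named for the mouse gene, also reads the transgene is not given in the sources used here. Well above background were 14412 and 15800 gene spots in the K14-caSmad1 channel and 15570 and 16144 in the wild-type channel.

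**Figure D5:**
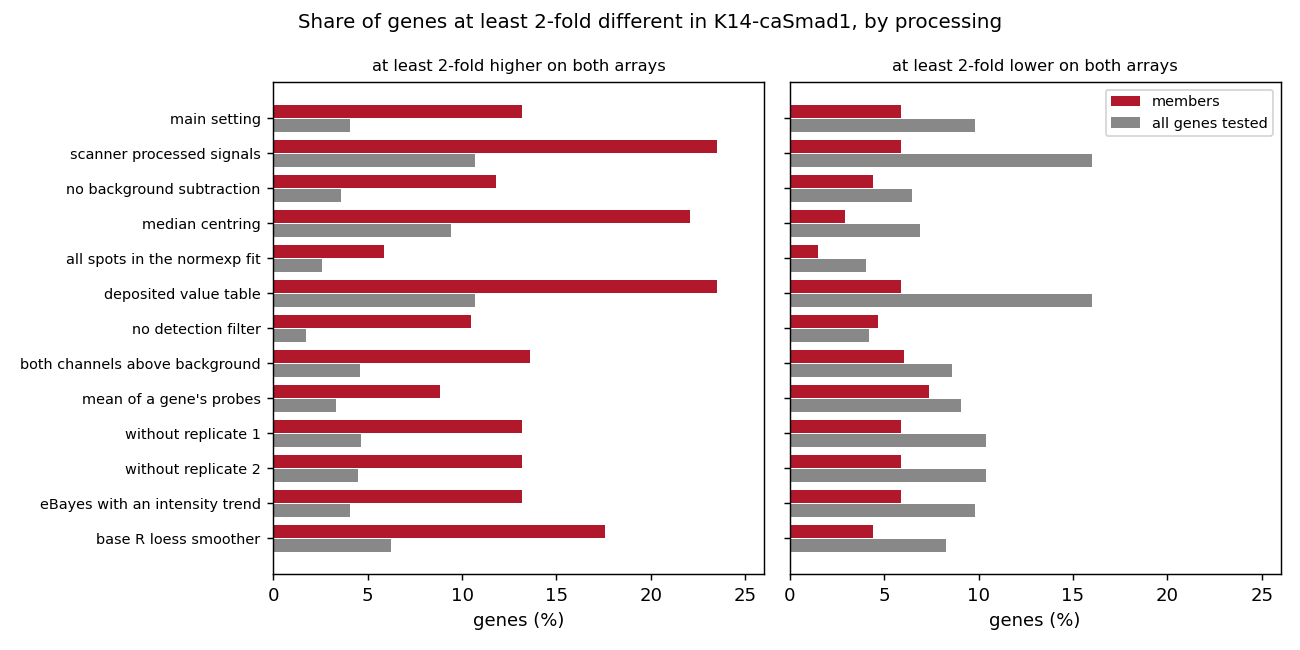
Share of genes (horizontal axis, percent) at least 2-fold higher (left panel) or lower (right panel) in K14-caSmad1 on both arrays, for the members (red) and all tested genes (grey), under the main processing and 12 alternatives. The members' share on the higher side was above that of all genes in every row; on the lower side it was below it in every row except that without a detection filter, where it was 4.65% against 4.19%.

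The processing moved these shares. On the higher side the members' share ran from 5.88% with all spots in the background fit to 23.5% when the processed signals of the scanner were taken, where 2.58% and 10.7% of all genes were called. Ube2e3, Uchl5, Usp34 and Usp54 were called the same way under all 12 alternatives. Usp46 and Ube2d3 were called under 11, and Ube2o, the least often, under 8. Several alternatives could not remove these calls: either array alone, an intensity trend in limma's fit and the changed detection filters. Ube2e3, Uchl5, Usp34 and Usp54 had 1 tested probe each, so averaging probes left them as they were. The deposited table holds ratios of the processed signals and nearly repeats that alternative.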

How the data were processed

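Scanner files of 2 two-colour Agilent arrays (45018 spots, of which 43379 were gene spots) were used. Per the file headers, Agilent Feature Extraction 10.5.1.1 wrote for each spot and channel the mean and background signal intensity without normalization, probe positions on mm9, and a processed intensity that was background-subtracted and dye-normalized. The deposited table holds log10 ratios of the processed intensities and was used as an alternative. Per the labels' protocols, RNA was amplified in 1 round before labelling.

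The 36 spots of replicate 1 on a non-uniform background were left out. Background was corrected with limma 3.58.1 (R 4.3.3; normexp, offset 50) and log2 ratios of the deposited intensities were loess-normalized within arrays (span 0.3, control spots at weight 0). Channel levels were scaled between arrays by Aquantile. A probe was tested if well above background on both arrays in either channel, and the brightest probe stood for its gene. A change was called at 2-fold on both arrays. limma's lmFit and eBayes with Benjamini-Hochberg adjustment at 0.05 ran over all 11760 genes and was tested on simulated data. A bound ("at least N-fold") sets the bright channel against the higher of the dim probe's signal and the lowest signal well above background, and is open to dye bias.

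Members keep their names in the files; other gene names were updated through RefSeq accessions, symbols and synonyms where these matched. Promoters came from RefSeq (GRCm38.p6), where 54 of the 68 tested members matched. Exon and untranslated-region annotation of the probes was not used here. Named genes were the called members, the 10 highest and 10 lowest, the Smad-linked list, up to 3 extremes of each role class, members with opposed probes, the 5 brightest, and up to 3 called genes of each other list. Usp14, Usp10, Usp28 and a few others are given to complete a role class. Members, lists and rules were chosen with earlier results of these data known. The number of arrays limits the precision. The values of some genes are not reported here.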

Additional observations from a re-analysis of the deposited data

How the results depend on the processing

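Either array alone gave 9 higher and 4 lower members, beside 4.51% to 4.66% and 10.4% of all genes, with member medians of 0.1815 to 0.1818. There were 14 to 15 lower and 4 to 5 higher pathway list genes. A gene past 2-fold on both arrays passes on each, so these counts could only stay or rise. With both arrays the counts were the same with an intensity trend in eBayes, which the 2-fold rule does not use. With all spots in the background fit there were 4 higher and 1 lower members, beside 2.58% and 4.02% of all genes, and 9 pathway list genes. By limma 15 members were then higher and 8 lower, and the share of all genes is not given for that count. With median centring there were 15 higher and 2 lower members, beside 9.43% and 6.90% of all genes. With the scanner's processed signals, and likewise with the deposited table, there were 16 higher and 4 lower members, beside 10.7% and 16% of all genes. There were then 31 pathway list genes (16 higher, 15 lower). The members' median was 0.32 with processed signals and 0.32 with the deposited table, 0.14 without background subtraction, 0.43 with median centring, 0.15 with all spots in the fit, 0.20 with both channels above background and 0.15 when probes of a gene were averaged. With base R's loess smoother, chosen after seeing the data, it was 0.29. Settings for the pathway lists were also chosen after seeing the data. Ube2d3 turned to -0.24 when its probes were averaged. Of the named genes' values under the alternatives, 565 kept their sign and their side of the 2-fold line, 36 dropped inside it, 17 passed it, and 5 uncalled values changed sign. Median centring moved the median of all genes by 0.25 and base R's loess by 0.11. The members' median stayed above that of all genes by 0.14 to 0.30 under each alternative. The cause of a moved count was not tested for any setting. The log2 ratio within an array is itself the paired difference of the genotypes, so no further block was fitted.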

Other observations

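Other E1 genes were picked with their values already known. In the NEDD8 arm the E1 subunits Uba3 and Nae1 were at 1.23 and 0.64, while the E2s Ube2m and Ube2f were at -0.07 and -0.50 at their brightest probes, with 0.05 and 0.21 at the other probes of Ube2f. The ubiquitin E1 Uba1 was at -0.51.

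The cofactors of Usp1, Usp12 and Usp46 were looked up after the values of those deubiquitinases were seen. Wdr48, which activates all of them, was at -0.36, with 9.52 and 10.03 in K14-caSmad1 and 9.92 and 10.36 in wild type. Wdr20, the further cofactor of Usp12 and Usp46, was at 0.66, and Dmwd, a relative of Wdr20, at -0.81.

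Some probes were brighter on replicate 2 by over 0.5 in both channels. Among the 68 member probes there were 9 (13.2%), and among 15110 tested probes 1122 (7.43%). Of these 9, Ube2e1, Usp25, Usp1 and Ube2q2 were called. The shift reached 1.53 for Ube2e1, where the K14-caSmad1 channel was brighter by 1.62 and the wild-type channel by 1.45. The log2 ratios of the 9 differed between the arrays with an SD of 0.071, against 0.077 for the other members, but over all tested probes with 0.153 against 0.103.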
